A study of Mus musculus with 21 samples.

Results

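The libraries compared here are the 2 control cultures of bone marrow-derived eosinophils (BMDEs) and the 3 libraries of granulocyte-macrophage progenitors (GMPs), 5 of the 21 mouse libraries of the series. They were chosen by their sample titles, without use of any measured value. All 5 come from wild-type (WT) mice, and both groups are labelled untreated. The 3 bone marrow eosinophil libraries, also wild-type and untreated, are set beside them as the marrow group that carries the eosinophil label. Their highest count was that of Mpo, a primary granule gene, in libraries 1 and 2 and of S100a8, a neutrophil gene, in library 3. A position within their range therefore does not by itself measure nearness to an eosinophil state. Per the labels, the BMDEs grew from flushed femur and tibia marrow depleted of red cells and adherent cells, for 4 days with SCF and FLT3 ligand at 100 ng/mL each and then with IL-5 at 10 ng/mL, and RNA was taken on day 7. The control cultures received neither deferoxamine (DFO, an iron chelator) nor ferric ammonium citrate (FAC, an iron source), which 3 and 4 further cultures received at 5 µM and 10 µM. The labels carry that same culture text for every sample, so the isolation of the GMPs and of the marrow eosinophils is not given in the sources used here, and neither are the age and sex of the mice or whether libraries of a group came from separate animals. P-values therefore measure only the spread between these libraries, which may be technical.

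GMPs are the marrow progenitors that give rise to neutrophils, monocytes and, through an eosinophil-committed stage, eosinophils. They express Kit and CD34 and fill primary granules with myeloperoxidase and serine proteases. Eosinophil development depends on GATA1 and C/EBP factors and on IL-5, and ends in a cell packed with major basic protein, eosinophil peroxidase and ribonucleases, with CCR3 and Siglec-F on its surface. The culture imitates this path: SCF and FLT3 ligand expand progenitors, and IL-5 selects and matures eosinophils.

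Cultured cells and GMPs were deposited in separate tables, so table and cell type cannot be told apart in any value below, and only differences of at least 8-fold are treated as results. A gene is called when edgeR's quasi-likelihood test gave an adjusted p under 0.05 and the fold change reached 8. Levels are given in CPM, counts divided by library size after scaling with TMM factors. The tables shared 15235 genes, which held at least 99.95% of the counts of every library, and 13270 were tested. Total counts were 17181951 and 17080975 in the control BMDEs and 25857382 to 28992668 in the GMP and marrow eosinophil libraries. The rank correlation across the tested genes, which are not independent replicates, was 0.9981 between the control BMDE libraries, 0.987 to 0.993 among GMPs and 0.765 to 0.779 between BMDEs and GMPs. Marrow eosinophil libraries correlated at 0.721 to 0.811 with the BMDEs and at 0.804 to 0.916 with the GMPs, which share their table. Marrow eosinophil library 3 stood apart from its group, with rank correlations of 0.896 and 0.926 to the others and a TMM factor of 0.693 against 0.883 to 1.16 elsewhere. The mice also differed on the Y chromosome: Uty, a Y-linked demethylase gene, was at 31.6, 44.2 and 34.1 CPM in GMPs and at 0.263 and 0.214 CPM in the BMDEs, and Ddx3y, Eif2s3y and Kdm5d are listed in the GMP table and not in the BMDE table. By these genes the sex of the mice differs along with table and cell type, and its part in the results was not tested beyond leaving out the X and Y chromosomes, which held 35 of the genes called higher and 9 of those called lower.

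Of the 13270 genes tested, 1535 (11.6%) were called higher in control BMDEs than in GMPs and 249 (1.88%) were called lower, with a median log2 fold change of -0.06 over all tested genes. Without genes on X and Y the counts were 1500 and 240. A limma fit on quantile-normalised ranks alone, which changes the scaling and the test together, gave 1149 higher and 535 lower, whereas library totals in place of TMM factors gave 1506 and 241. Leaving out BMDE library 1 or 2, which leaves a lone sample assumed to vary like the other groups, gave 97 or 103 genes lower, and 162 were lower without GMP library 3. Every called gene had non-overlapping libraries in CPM and in rank, but so did 80.5% of all tested genes, and that criterion adds little. In all 7 DFO and FAC cultures, 1525 of the 1535 higher genes and 243 of the 249 lower genes lay on the same side of all GMP libraries, though these cultures share the table of the controls.

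**Figure D1:**
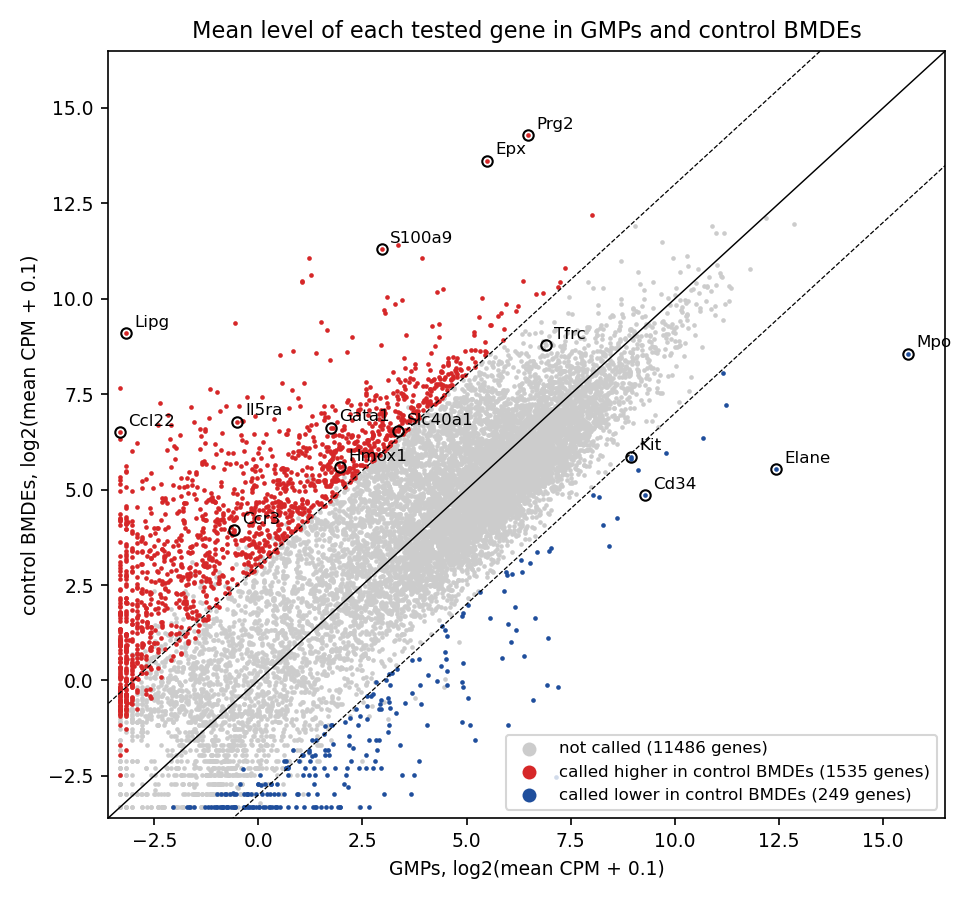
Each point is a tested gene, with log2(mean CPM + 0.1) in the 3 GMP libraries on the horizontal axis and in the 2 control BMDE libraries on the vertical axis. The solid line marks equal levels and the dashed lines 8-fold differences; red and blue points are the 1535 and 249 genes called higher and lower, with Prg2 and Epx high in BMDEs and Mpo and Elane high in GMPs.

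Most genes of the eosinophil's granule proteins were far higher in the cultures than in GMPs. Prg2, which encodes major basic protein, was at 81.1, 37.4 and 149 CPM in the GMPs and at 19978 and 20098 CPM in the control BMDEs, and it had the highest count of any gene in both cultures. Its log2 fold change was 7.81 ± 0.68 (SE, adjusted p = 8.84e-05), a 225-fold rise. The cultures lay inside the range of the marrow eosinophils, which had 12217 to 24310 CPM.

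Epx, which encodes eosinophil peroxidase, was at 47.3, 21.5 and 66.3 CPM in GMPs and at 12938 and 12229 CPM in BMDEs. It rose by 8.13 ± 0.60 on the log2 scale (adjusted p = 4.76e-05), a 279-fold rise, and both cultures exceeded all 3 marrow eosinophil libraries, at 5263, 3156 and 2314 CPM. The difference from the marrow eosinophils was 1.81 on the log2 scale (adjusted p = 0.0162), which is under the 8-fold limit. Prg3, the major basic protein homologue encoded next to Prg2, rose from 9.51, 3.92 and 10.5 CPM to 829 and 852 CPM (log2 fold change 6.72), within the 733 to 1380 CPM of the marrow eosinophils.

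The eosinophil-associated ribonucleases Ear1, Ear2, Ear6 and Ear10 behaved alike against GMPs. Ear1 was at 2.12, 0.565 and 4.22 CPM in GMPs and at 1655 and 1528 CPM in BMDEs, and Ear6 at 2.12, 0.531 and 4.07 against 2175 and 2118 CPM. Their log2 fold changes were 9.43 and 9.90, with 9.48 for Ear2 and 9.12 for Ear10. Because Ear1 and Ear2 are near-identical copies, the division of reads between them is uncertain. Against marrow eosinophils neither Ear1 (0.05, adjusted p = 0.962) nor Ear6 (1.5, adjusted p = 0.0986) passed the test.

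In all, 8 of the 9 tested granule genes were called higher than in GMPs, against 11.6% of all tested genes, with a list median log2 fold change of 8.13. The remaining member, Srgn, which encodes the granule proteoglycan serglycin, had a log2 fold change of -0.08. None of the 9 was called different from marrow eosinophils, where the list median was 0.30. The granule list took 4.51% and 4.45% of the counts in the cultures, 0.0812% to 0.129% in GMPs, 1.99% to 2.90% in marrow eosinophils and 0.391% to 0.408% in the resting eosinophils of the third table. Compared per transcript length in the deposited TPM values, Prg2 reached 59614 and 60592 TPM in the BMDEs and Mpo 291 and 273 TPM, whereas the GMPs had 40129 to 42566 TPM of Mpo and 130 to 431 TPM of Prg2.

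The promoter windows of a few of these genes are shown because granule genes of the eosinophil and of the GMP moved in opposite directions. Windows are the 250 bases before the RefSeq transcript start, on the GRCm38.p6 build and on the strand of the gene, for Prg3 (chr2:84987965-84988214), Il5ra (chr6:106749038-106749287), Ear1 (chr14:43819640-43819889), Ear2 (chr14:44102404-44102653), Mpo (chr11:87793534-87793783), Elane (chr10:79886062-79886311) and Prtn3 (chr10:79879417-79879666). Capitals mark matches on either strand to GATAA (written TTATC where it lies on the other strand), the sequence read by GATA factors, to TTGCNNAA, a form read by C/EBP proteins, or to GAGGAAGT, which holds the GGAA core read by ETS factors such as PU.1. Matches of different motifs were counted separately. The third motif was chosen after the sequences had been read.
Prg3: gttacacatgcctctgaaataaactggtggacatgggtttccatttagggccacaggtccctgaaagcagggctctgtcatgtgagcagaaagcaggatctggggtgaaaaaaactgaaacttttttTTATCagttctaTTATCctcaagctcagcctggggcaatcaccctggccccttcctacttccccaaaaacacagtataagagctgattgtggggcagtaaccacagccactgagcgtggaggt
Il5ra: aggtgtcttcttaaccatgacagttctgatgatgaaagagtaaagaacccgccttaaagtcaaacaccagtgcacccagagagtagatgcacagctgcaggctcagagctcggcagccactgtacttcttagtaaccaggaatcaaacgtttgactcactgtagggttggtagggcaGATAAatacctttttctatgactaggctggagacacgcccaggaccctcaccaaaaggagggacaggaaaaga
Ear1: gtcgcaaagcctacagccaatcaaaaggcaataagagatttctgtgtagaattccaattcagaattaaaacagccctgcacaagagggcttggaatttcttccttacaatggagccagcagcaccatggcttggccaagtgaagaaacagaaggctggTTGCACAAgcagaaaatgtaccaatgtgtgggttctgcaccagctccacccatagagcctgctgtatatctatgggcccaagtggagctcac
Ear2: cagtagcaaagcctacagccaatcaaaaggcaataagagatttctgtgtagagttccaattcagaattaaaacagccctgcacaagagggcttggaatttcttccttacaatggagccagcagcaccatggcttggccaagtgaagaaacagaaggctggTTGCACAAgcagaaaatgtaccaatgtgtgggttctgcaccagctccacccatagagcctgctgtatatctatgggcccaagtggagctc
Mpo: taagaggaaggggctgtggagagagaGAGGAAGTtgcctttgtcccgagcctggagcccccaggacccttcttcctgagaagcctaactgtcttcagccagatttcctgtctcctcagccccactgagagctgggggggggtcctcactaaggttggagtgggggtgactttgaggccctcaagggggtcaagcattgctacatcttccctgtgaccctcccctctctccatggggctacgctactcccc
Elane: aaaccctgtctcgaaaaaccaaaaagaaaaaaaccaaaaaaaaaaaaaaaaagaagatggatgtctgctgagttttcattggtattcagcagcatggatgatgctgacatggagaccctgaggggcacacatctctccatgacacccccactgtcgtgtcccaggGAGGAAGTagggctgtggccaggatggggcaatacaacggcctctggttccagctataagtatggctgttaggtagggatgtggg
Prtn3: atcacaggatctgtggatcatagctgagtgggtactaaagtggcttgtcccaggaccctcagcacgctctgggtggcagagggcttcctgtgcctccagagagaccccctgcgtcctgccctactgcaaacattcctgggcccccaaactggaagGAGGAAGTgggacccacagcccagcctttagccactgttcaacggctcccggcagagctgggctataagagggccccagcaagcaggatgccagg

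In Prg3 the GATAA matches start 123 and 111 bases before the transcript start, and in Il5ra the match starts at 73 bases. Ear1 and Ear2 hold TTGCNNAA at 92 and 90 bases, and their windows were identical at 246 of 248 aligned bases (99.2%). GAGGAAGT starts at 224 bases in Mpo, 85 in Elane and 95 in Prtn3. The windows of Epx, Ear6 and Gata1 hold none of these letters. GATAA was found in 23.0% of all 27025 windows in the table, in 15.2% of tested genes with a window, in 17.1% of those called higher and in 25.9% of those called lower. TTGCNNAA was found in 9.10% of the windows of genes called higher, 11.9% of those called lower and 7.91% of those tested. For GAGGAAGT these shares were 4.04%, 3.24% and 2.62%. These shares describe the letters in the windows and say nothing of binding.

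Among 35 tested eosinophil surface genes, 23 were called higher than in GMPs and none lower, against 11.6% and 1.88% of all tested genes, with a median of 4.75. Il5ra, the IL-5 receptor alpha chain, was at 0.220, 0.565 and 1.01 CPM in GMPs and at 111 and 109 CPM in the cultures, a log2 fold change of 7.52 ± 0.50 (adjusted p = 3.12e-05). The cultures lay above the marrow eosinophils, at 49.8, 62.7 and 52.7 CPM, and below the resting eosinophils, which averaged 365 CPM. Ccr3, the eotaxin receptor, showed another order. It was at 0.0317, 1.43 and 0.236 CPM in GMPs, at 15.0 and 15.5 CPM in BMDEs and at 286, 394 and 1309 CPM in marrow eosinophils. It rose against GMPs by 4.75 ± 1.04 on the log2 scale (adjusted p = 0.00674) and was lower than in marrow eosinophils, with a log2 fold change of -5.44 (adjusted p = 0.00611). Without BMDE library 1 or 2 the latter difference was -5.36 or -5.40 and was no longer called. By counts Ccr3 ranked at the 47th percentile of genes in both cultures and at the 96th to 99th percentile in marrow eosinophils.

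Siglecf, the gene of the surface lectin used to identify mouse eosinophils, was at 102 CPM in both cultures, 26.7 to 29.8 CPM in GMPs and 181 to 209 CPM in marrow eosinophils. Its log2 difference from GMPs was 1.86 (adjusted p = 4.41e-05), under the 8-fold limit, as was that of Csf2rb, the shared beta chain of the IL-5, IL-3 and GM-CSF receptors, at 2.25. Csf2rb was at 1215 and 1276 CPM in the cultures and at 212 to 359 CPM in GMPs and marrow eosinophils together, with no overlap. The surface genes called higher include Cd300lf, an inhibitory receptor, at 0.127, 0.365 and 0.707 CPM in GMPs and 200 and 176 CPM in BMDEs, and C3ar1, the receptor for complement C3a, at 0 to 0.236 CPM against 103 and 102 CPM.

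Set beside the marrow eosinophils, 2 surface genes were called higher in culture, against 7.98% of all tested genes, and 4 lower, against 3.01%. Higher were Tgfb1, which encodes the cytokine TGF-beta 1 (395 against 1.65 CPM), and Csf2rb2, a second IL-3 receptor beta chain of the mouse (642 against 63.5 CPM). Lower were Ccr3, Siglece, Clec4a2 and Clec12a, of which the last 3 encode inhibitory lectin-type receptors. The cultures lay above both other groups for 17 of the 35 genes, within the marrow eosinophil range for 5, and between the groups for 7.

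**Figure D2:**
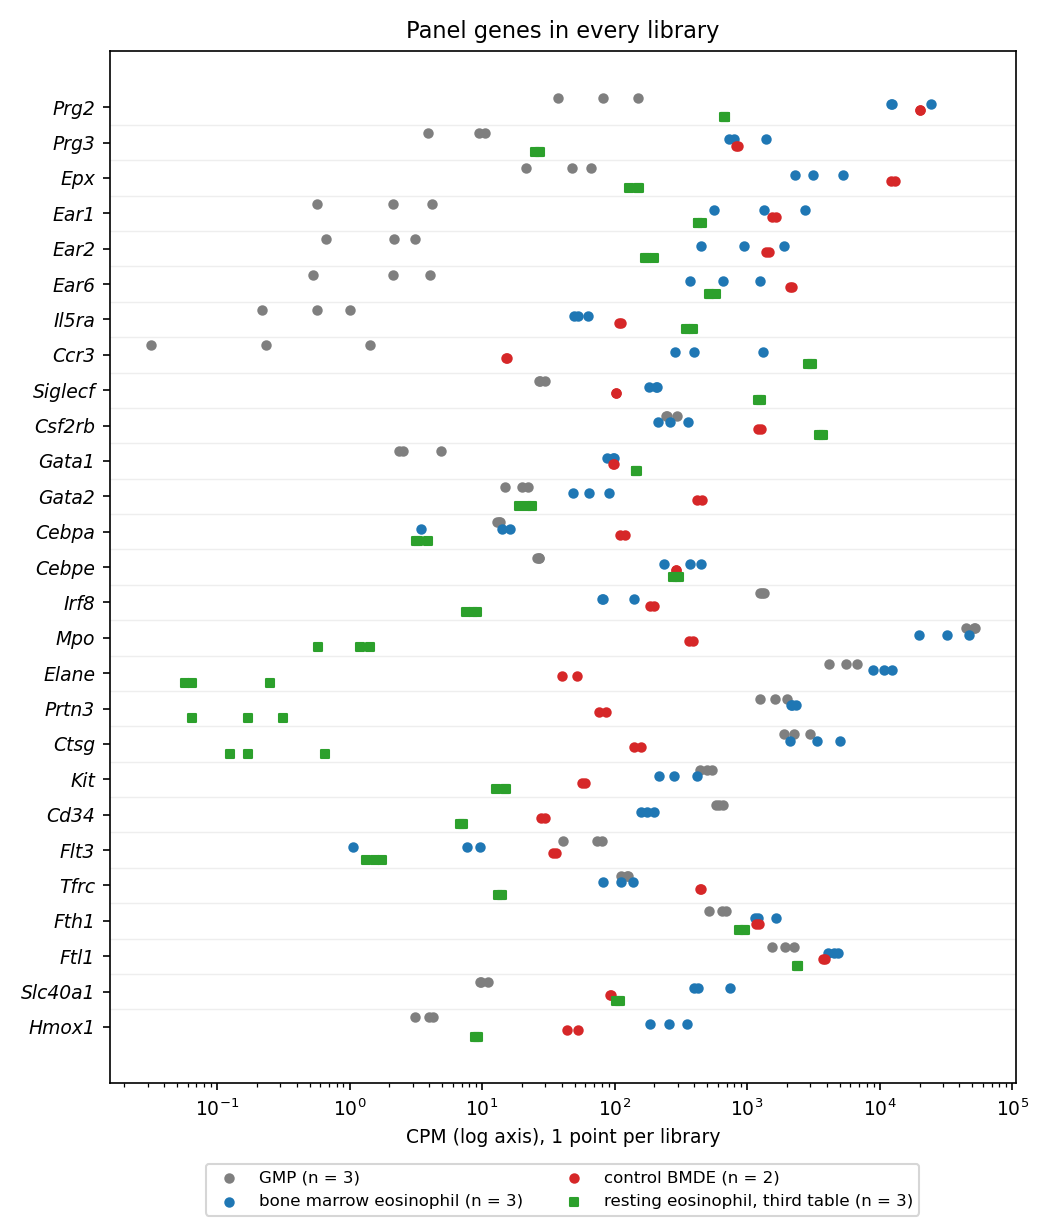
CPM on a log axis for each panel gene, with 1 point per library of GMPs, marrow eosinophils, control BMDEs and the resting eosinophils of the third table, which were scaled separately. Granule genes of the cultures lie with or above the marrow eosinophils, Ccr3 lies between GMPs and eosinophils, and Mpo, Elane, Prtn3 and Ctsg lie below both.

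Of the 26 tested granulocyte transcription factors, 10 were called higher than in GMPs and none lower, against 11.6% and 1.88% of all tested genes, with a median of 1.77. Gata1, which directs eosinophil commitment, was at 2.38, 2.52 and 4.88 CPM in GMPs and at 99.3 and 97.6 CPM in BMDEs (log2 fold change 4.92 ± 0.32, adjusted p = 3.08e-05). The marrow eosinophils, at 87.3 to 99.6 CPM, enclosed both cultures. Gata2, a GATA factor of stem cells, mast cells and early eosinophils, went beyond them: it was at 14.8, 20.0 and 22.1 CPM in GMPs, 416 and 455 CPM in BMDEs and 48.8 to 91.2 CPM in marrow eosinophils. Its rise over GMPs was 4.52 ± 0.30 on the log2 scale. Cebpe, which is needed for the late granulocyte stages, was at 25.9 to 26.9 CPM in GMPs and at 289 and 290 CPM in BMDEs, within the marrow eosinophil range (log2 fold change 3.45). With length and GC offsets the value was 2.98, just under the limit.

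Cebpb, an inducible C/EBP factor, was far higher in the cultures than in both marrow populations, which share a table. It was at 0.285, 0.365 and 0.202 CPM in GMPs and at 91.0 and 77.3 CPM in BMDEs, a log2 fold change of 8.18 ± 0.40 (adjusted p = 9.80e-06). Marrow eosinophils had 0.477 to 0.836 CPM, whereas the resting eosinophils of the third table averaged 186 CPM. Zfpm1, the GATA1 cofactor FOG-1, was similarly placed, with 0.202 to 0.432 CPM in GMPs, 50.4 and 56.9 CPM in BMDEs and 1.39 to 2.23 CPM in marrow eosinophils. Cebpa, the factor required for GMP formation, was at 109 and 120 CPM in BMDEs and 13.1 to 13.8 CPM in GMPs (3.09 on the log2 scale). Its call was lost on ranks alone (2.98), with the replicate block (2.73) and with length and GC offsets (2.38). Irf8, which drives the monocyte and dendritic branches, was at 1329, 1301 and 1246 CPM in GMPs and at 186 and 197 CPM in BMDEs, a log2 difference of -2.75 that is under the limit.

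Besides those named, the factors called higher were Ikzf2, Ikzf3, Id2 and Irf4. The Irf4 call was lost without GMP library 1 or 3, without BMDE library 1 and with the replicate block. Against marrow eosinophils 4 were higher, namely Cebpa, Cebpb, Zfpm1 and Klf4, where the share of all tested genes was 7.98%. The Cebpa difference there was 3.33, and its call was lost without marrow eosinophil library 3 (2.90) and with length and GC offsets (2.60).

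Feedback genes of cytokine receptors were examined because the cultures received IL-5. SOCS, CISH and PIM genes are transcribed when STAT5 is activated by cytokine receptors. Cish averaged 2.08 CPM in GMPs, 60.0 CPM in BMDEs and 5.46 CPM in marrow eosinophils. Socs2 was at 0.285, 0.0997 and 0.236 CPM in GMPs and at 34.1 and 34.6 CPM in BMDEs, a log2 fold change of 7.34 ± 0.81, with 0.199 to 1.10 CPM in marrow eosinophils. Pim1, a survival kinase gene, averaged 16.7, 315 and 31.3 CPM in the same order. Of 16 tested genes 11 were called higher than in GMPs, against 11.6% of all tested genes, and none lower, with a median of 4.15. The list took 0.124% and 0.116% of counts in BMDEs, 0.0200% to 0.0294% in GMPs and 0.0178% to 0.0220% in marrow eosinophils. Resting eosinophils of the third table lay above the cultures, at 0.243% to 0.244%, so a high share was not particular to the cultures. Il2ra, the IL-2 receptor alpha chain and a STAT5 target, had no count in any GMP library and was at 18.4 and 18.3 CPM in BMDEs, at least 504-fold higher against a floor of 3 counts over the GMP group. Against marrow eosinophils Cish, Socs2, Pim1, Il2ra and Lif were called higher, and the Il2ra call was lost without marrow eosinophil library 2 or either BMDE library. The anti-apoptotic Bcl2a1a, Bcl2a1b and Bcl2a1d also rose against GMPs, but these near-identical genes may share reads.

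Several primary granule genes moved the opposite way. Mpo, which encodes myeloperoxidase, was at 52134, 44436 and 51579 CPM in GMPs, where it had the highest count of any gene, and at 391 and 364 CPM in the cultures. It fell by 7.03 ± 0.51 on the log2 scale (adjusted p = 4.34e-05), a 131-fold difference. Elane, which encodes neutrophil elastase, was at 5556, 4173 and 6703 CPM in GMPs and at 51.9 and 40.2 CPM in BMDEs, with a log2 fold change of -6.89 ± 0.37. Prtn3, the proteinase 3 gene, and Ctsg, the cathepsin G gene, had log2 fold changes of -4.33 and -3.99. In each of these 4 genes the cultures and the GMPs were far apart, without overlap.

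The marrow eosinophil libraries carried these transcripts at GMP-like levels. They held 47386, 32336 and 19690 CPM of Mpo and 12454, 10831 and 8974 CPM of Elane, so the cultures were lower than the marrow eosinophils as well, by -6.46 and -7.87 on the log2 scale. Resting eosinophils of the third table averaged 1.06 CPM of Mpo and 0.124 CPM of Elane, below the cultures. Of 15 tested primary granule genes, 4 were called lower than in GMPs, against 1.88% of all tested genes, with a median of -1.45. Against marrow eosinophils 10 were called lower, where the share of all tested genes was 3.01%, with a median of -3.68. The list took 0.566% and 0.555% of counts in BMDEs, 6.5% to 7.40% in GMPs, 3.61% to 7.12% in marrow eosinophils and 0.0774% to 0.0802% in resting eosinophils. In bulk RNA, fewer cells of a type and less RNA per cell cannot be told apart, in these genes as in all that follow.

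Mpo and Epx encode related peroxidases and lie 59585 bases apart on chromosome 11 (GRCm38), yet moved in opposite directions. Between them lie Lpo, the lactoperoxidase gene, and Mks1, a ciliary gene, with log2 fold changes of -3.23 (adjusted p = 0.147) and -2.08 (adjusted p = 0.0511), neither of them called. Neighbours of the same class moved together: Prg2 and Prg3 lie 4564 bases apart on chromosome 2, and Prtn3 and Elane 3138 bases apart on chromosome 10.

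Of 30 tested stem and progenitor genes, 4 were called lower and 4 higher than in GMPs, against 1.88% and 11.6% of all tested genes, so the higher count is near that of genes at large. Cd34, the stem and progenitor surface sialomucin, was at 653, 617 and 586 CPM in GMPs and at 27.8 and 29.8 CPM in BMDEs, a log2 fold change of -4.42 ± 0.18 (adjusted p = 7.80e-06), with 158 to 199 CPM in marrow eosinophils. Kit, the receptor for SCF, was at 500, 541 and 438 CPM in GMPs and at 56.4 and 59.9 CPM in BMDEs (-3.08 ± 0.30). The Kit value is close to the limit: it was -2.98 without GMP library 1, -2.91 without GMP library 2, -2.94 without BMDE library 1 and -2.93 with DESeq2, and was not called in those fits. Cd27, a TNF receptor family gene of progenitors, was at 54.4 to 60.0 CPM in GMPs and at 1.31 and 1.47 CPM in BMDEs (-5.37). Flt3, the receptor for FLT3 ligand, did not pass the test, with a log2 difference of -0.88 (adjusted p = 0.339).

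The genes called lower were Cd34, Kit, Cd27 and Ptk7, and those called higher Slamf1, Gfi1b, Tal1 and Igf2r. Tal1, which works with GATA factors in erythroid, megakaryocyte and mast cells, was at 3.30 to 4.42 CPM in GMPs and at 70.1 and 75.9 CPM in BMDEs. Gfi1b, a repressor of the megakaryocyte and erythroid branches, averaged 3.42 CPM in GMPs, 37.0 CPM in BMDEs and 48.5 CPM in marrow eosinophils. Proliferation genes were not called lower: of 42 cell cycle genes 2 were called higher, E2f2 and Cdkn2c, against 11.6% of all tested genes. At an adjusted p under 0.05 and any size, 23 of the 42 were lower and 8, with those 2, were higher. Of all 13270 tested genes, 3017 were lower and 3356 higher by that measure. All 26 ribosome biogenesis genes stayed under the limit, with a median of -1.34.

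Marker lists of other blood cell types were counted in the same way, and the part of these cells in the results was not tested. Of 22 neutrophil genes, 20 were called higher than in GMPs and none lower, against 11.6% and 1.88% of all tested genes, with a median of 5.88 (5.68 with Stfa2, at 0 in GMPs, set to its bound). S100a9, a calprotectin subunit gene, was at 7.04, 6.34 and 9.66 CPM in GMPs, 2743 and 2277 CPM in BMDEs and 4854, 14374 and 44508 CPM in marrow eosinophils. The list took 1.35% and 1.14% of counts in BMDEs, 0.0405% to 0.0474% in GMPs and 4.08%, 7.76% and 14.5% in marrow eosinophils. The cultures lay between GMPs and marrow eosinophils for 17 of the 22 genes, and 7 were called lower than in marrow eosinophils, against 3.01% of all tested genes, among them Camp, the cathelicidin gene, at 66.3 against 17138 CPM on average. The S100a9 difference from marrow eosinophils, -3.08, was -1.94 without marrow eosinophil library 3, and its call was lost in 10 alternatives in all.

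Of 21 dendritic cell genes, 15 were called higher than in GMPs, against 11.6% of all tested genes, and none lower, with a median of 4.90. Siglech, a marker of plasmacytoid dendritic cells, was at 0, 0.465 and 0.269 CPM in GMPs, 104 and 114 CPM in BMDEs and 2.84 to 5.26 CPM in marrow eosinophils. Ccr9, a homing receptor of those cells, was at 0.0634 to 0.236 CPM in GMPs and 67.5 and 74.8 CPM in BMDEs. Ccr7, the receptor of migrating dendritic cells, was at 0.168 to 0.997 CPM in GMPs and 142 and 151 CPM in BMDEs. These 3 genes, Clec9a and Cox6a2 were also called higher than in marrow eosinophils. The list took 0.250% and 0.262% of the counts in BMDEs, 0.0180% to 0.0249% in GMPs and 0.212%, 0.0914% and 0.0784% in marrow eosinophils, the first of which was close to the cultures.

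Megakaryocyte and platelet genes were higher in the cultures than in either marrow population. All 11 tested genes lay above both, compared with 30.2% of all tested genes, and 9 were called higher than in GMPs, against 11.6%, with a median of 4.27. Thbs1, which encodes thrombospondin 1, was at 2.12, 2.92 and 0.808 CPM in GMPs, 1434 and 1336 CPM in BMDEs and 31.8 to 118 CPM in marrow eosinophils. Ppbp, a platelet chemokine gene, was at 2.25, 7.84 and 2.69 CPM in GMPs and at 390 and 389 CPM in BMDEs. Thbs1 was also high in resting eosinophils, at 697 CPM on average, but Ppbp was not, at 1.04 CPM. The list took 0.347% and 0.348% of counts in BMDEs, 0.00608% to 0.0130% in GMPs and 0.0202% to 0.0249% in marrow eosinophils. Against marrow eosinophils the Ppbp call was lost without marrow eosinophil library 2 or either BMDE library and when only the groups compared were fitted. The call of Gp6, a platelet collagen receptor gene, was lost in all of these fits, with length and GC offsets and without GMP library 3. Against GMPs the Gp6 call was lost without GMP library 1 or 3.

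Of 13 mast cell and basophil genes 8 were called higher than in GMPs, against 11.6% of all tested genes. Cyp11a1, a steroid synthesis enzyme gene of mast cells, was at 1.17, 2.06 and 4.98 CPM in GMPs, 652 and 700 CPM in BMDEs and 16.9 to 29.1 CPM in marrow eosinophils. The mast cell and basophil proteases Mcpt8 and Prss34 averaged 745 and 1424 CPM in BMDEs and 54.1 and 81.7 CPM in GMPs. Of 25 monocyte and macrophage genes, 12 were called higher and 2 lower, against 11.6% and 1.88%. C1qb, a complement gene of macrophages, was at 0.269 to 1.14 CPM in GMPs, 114 and 109 CPM in BMDEs and 261 to 461 CPM in marrow eosinophils. Gpnmb, a lysosomal glycoprotein gene of macrophages, was at 0.127 to 0.897 CPM in GMPs and 653 and 677 CPM in BMDEs, and did not exceed 0.874 CPM in marrow eosinophils. The 2 lower genes were F13a1 and Cd163.

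Lymphoid markers were present at a low share. Ms4a1, a B cell surface gene, had no count in the GMPs and stood at 33.4 and 37.6 CPM in the BMDEs, at least 974-fold higher. Marrow eosinophils held 42.5 to 128 CPM of it. Of 12 B cell genes 8 were called higher than in GMPs and 2 lower, Vpreb1 and Igll1, both pre-B cell genes, against 11.6% and 1.88% of all tested genes. Of 11 T and NK cell genes 7 were called higher, also against 11.6%, led by Il7r at 34.4 and 40.4 CPM against 0 to 0.135 CPM, and the Klrd1 call was lost in 5 of the 8 fits that leave out a library and with the replicate block. B cell genes took 0.0220% and 0.0229% of counts in the cultures.

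Red cell genes were counted last. Hbb-bs, an adult beta globin gene, was at 4.89, 5.14 and 3.05 CPM in GMPs, 0.0889 and 0 CPM in BMDEs and 219, 332 and 914 CPM in marrow eosinophils. Of 19 erythroid genes 3 were called higher and 4 lower than in GMPs, and 12 were called lower than in marrow eosinophils, against 11.6%, 1.88% and 3.01% of all tested genes, so the higher count is near that of genes at large. The lower ones against GMPs were Hbb-bs, Hba-a2, Alas2 and Car1, all at under 6 CPM in the GMPs, and without BMDE library 1 Car1 (-2.70) and Hba-a2 (-2.42) were not called, nor was Car1 without GMP library 3 (-3.33). The list median against GMPs, 0.06, changed sign in 10 of the alternative fits and gives no direction.

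**Figure D3:**
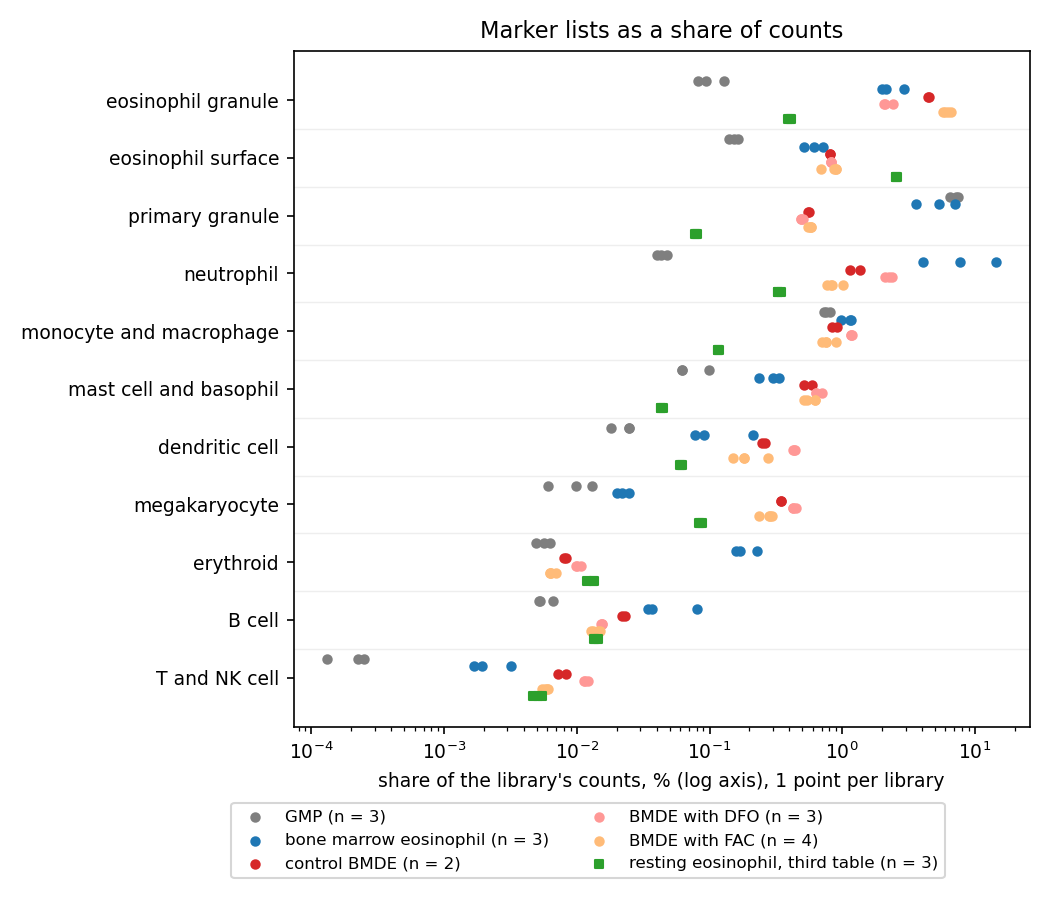
Share of each library's counts, in percent on a log axis, taken by the marker lists, with 1 point per library for GMPs, marrow eosinophils, BMDEs of the 3 arms and resting eosinophils. Control BMDEs lie above GMPs for eosinophil granule, neutrophil, dendritic cell and megakaryocyte genes, below GMPs for primary granule genes, and below marrow eosinophils for neutrophil and erythroid genes.

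By fitted log2 fold change, the 12 largest rises among genes averaging at least 20 CPM in the cultures included no granule gene. This order is uncertain where the GMPs had no count. The bounds of Fam167a and Clec4n, at least 558-fold and 855-fold, lie below the 957-fold rise of the granule gene Ear6. Apol7c, an apolipoprotein L family gene, had no count in GMPs and was at 192 and 212 CPM in BMDEs, at least 5553-fold higher. Ccl22, a chemokine gene of activated dendritic cells and macrophages, was at 88.4 and 93.1 CPM, and Il12b, the p40 subunit gene of IL-12, at 38.5 and 41.3 CPM, at least 2490-fold and 1095-fold above GMPs. Lipg, which encodes endothelial lipase, was at 551 and 552 CPM in BMDEs, with 1 count in all GMP libraries together and 0.0558 to 2.42 CPM in marrow eosinophils. Further genes among these 12 were Cacnb3, Ms4a1, Clec4n, Fam167a, Mmp25, Maf and Basp1. The cultures lay above both marrow groups for 9 of the 12, and Mmp25, a leukocyte metalloproteinase gene, was within the marrow eosinophil range.

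The largest falls were led by H2ac24 and H2ac23, replication-dependent histone genes. H2ac24 was at 176, 91.7 and 156 CPM in GMPs, 0.147 and 0 CPM in BMDEs and 219 to 1408 CPM in marrow eosinophils. All 49 tested histone genes were therefore examined, a set chosen after these values were seen: 10 were called lower, against 1.88% of all tested genes, none higher, and their share of counts was 0.00507% and 0.00530% in the cultures, 0.0343% to 0.0537% in GMPs and 0.0592% to 0.229% in marrow eosinophils. Most replication-dependent histone transcripts lack a poly(A) tail, so their share also reflects how oligo(dT) selection worked in each table, and its part in the falls was not tested. Other large falls were those of S1pr3, a sphingosine phosphate receptor gene, from 95.4 to 96.8 CPM in GMPs to 0.526 and 0.683 CPM in BMDEs (-7.30), Il31ra, an IL-31 receptor chain (-6.62), and Adgrl4, an adhesion receptor gene (-5.89). Serpinf1, which encodes pigment epithelium-derived factor, was at 115, 111 and 138 CPM in GMPs and 0.842 and 0.788 CPM in BMDEs (-7.21). Kcnip3, Klhl3, Afap1, Mpo, Elane and the Y-linked Uty complete the 12, and in all 12 the cultures lay below the marrow eosinophils too.

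Of the iron genes, few were called different from GMPs. Slc40a1, which encodes the iron exporter ferroportin, was at 9.57, 11.1 and 9.86 CPM in GMPs, 94.3 and 91.8 CPM in BMDEs and 748, 429 and 401 CPM in marrow eosinophils. It rose by 3.19 ± 0.28 on the log2 scale over GMPs (adjusted p = 8.84e-05). Hmox1, heme oxygenase 1, which frees iron from heme, was at 3.11, 4.25 and 3.97 CPM in GMPs, 52.7 and 43.9 CPM in BMDEs and 184 to 350 CPM in marrow eosinophils (3.68 ± 0.29). For both genes the cultures lay between the marrow groups. Slc11a1, an iron transporter gene of phagosomes, and Lcn2, a siderophore-binding neutrophil protein gene, rose against GMPs by 4.55 and 5.86, and Cd163, the haptoglobin-hemoglobin receptor gene of macrophages, fell by 6.11 (log2 fold change -6.11). Tfrc, the transferrin receptor gene, was at 452 and 437 CPM in the cultures, 111 to 125 CPM in GMPs and 82.4 to 138 CPM in marrow eosinophils, a log2 difference of 1.89 from GMPs that is under the limit. The ferritin genes Fth1 and Ftl1 differed by 0.95 and 1.00 on the log2 scale and were within or just below the marrow eosinophil levels.

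Counted by list, 2 of 12 iron uptake genes were called higher and 1 lower than in GMPs, and 3 of 17 genes of iron storage, export and heme breakdown were called higher. The counts called higher are near the 11.6% of all tested genes, so by them the lists as such do not stand out. The 1 lower gene, Cd163, is set against 1.88% of all tested genes called lower. Heph, a ferroxidase gene, was the third storage, export and heme breakdown gene called higher. It was at 0.0317 to 0.202 CPM in GMPs and only 4.05 and 3.21 CPM in BMDEs, and its call was lost without either BMDE library. None of 9 iron sensing genes and none of 25 iron-sulfur cluster assembly genes was called. In heme synthesis Cpox, coproporphyrinogen oxidase, rose from 2.43 to 3.39 CPM in GMPs to 38.2 and 37.5 CPM in BMDEs, and Alas2, the erythroid first enzyme of the pathway, had no count in the BMDEs against 0.236 to 0.565 CPM in GMPs, at least 5.10-fold lower, a call that was lost on ranks alone (-2.80).

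Mitochondrial genes did not reach the 8-fold limit. None of 76 oxidative phosphorylation genes and none of 22 tricarboxylic acid cycle genes was called against GMPs, with medians of -0.61 and -1.40. Below the limit, 25 and 19 of them had an adjusted p under 0.05 with a lower level in the cultures, and 1 and 0 with a higher level. Of all 13270 tested genes, 3017 were lower and 3356 higher at that adjusted p and any size. The cultures lay below both marrow groups for 48 of the 76 and 19 of the 22 genes, against 27.1% of all tested genes. The largest difference in the cycle was that of Idh2, mitochondrial isocitrate dehydrogenase, which averaged 630 CPM in GMPs, 112 CPM in BMDEs and 301 CPM in marrow eosinophils, and in the respiratory chain that of Uqcrc1, a complex III core gene, with a log2 difference of -2.66; both were singled out after their values were seen. Of 24 glycolysis genes 3 were called higher, a share near the 11.6% of all tested genes: Slc2a3, a glucose transporter gene, at 325 and 302 CPM against 21.8 to 25.2 CPM in GMPs, Slc16a3, a lactate exporter gene, and Aldoc, an aldolase gene whose call was lost with the replicate block. Of 24 antioxidant genes Slc7a11, the cystine transporter gene, Gclm, a subunit of the first enzyme of glutathione synthesis, and Nqo1, a quinone reductase, were called higher, again near that share. Slc7a11 was at 152 and 149 CPM in BMDEs, 4.83 to 6.06 CPM in GMPs and 4.08 to 10.3 CPM in marrow eosinophils. None of 30 housekeeping genes was called, with a median of -0.43.

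Set beside the marrow eosinophils, 1059 of the 13270 tested genes (7.98%) were called higher in the cultures and 400 (3.01%) lower. On ranks alone these were 888 and 571, and with library totals in place of TMM factors, which moves the median gene by 0.38, 1321 and 280. Without BMDE library 1 or 2 they were 599 or 607 higher and 177 or 180 lower. The comparisons with GMPs and with marrow eosinophils share the BMDE libraries, so their calls are given side by side only. Of the 1535 genes called higher than in GMPs, 678 were also called higher than in marrow eosinophils, 838 were not called and 19 were called lower. By position, the cultures lay above both marrow groups for 1217 of them, within the marrow eosinophil range for 154, between the groups for 115 and in partial overlap for 49. Of the 249 genes called lower than in GMPs, 195 lay below both groups and 46 within the marrow eosinophil range. Over all tested genes the cultures lay above both groups in 30.2%, below both in 27.1%, within the marrow eosinophil range in 23.5%, between the groups in 6.56%, within the GMP range in 5.18% and in partial overlap in 7.52%. Genes called higher or lower than in GMPs were selected on the same BMDE and GMP values that set the position. That selection favours positions above or below both, so their counts cannot be read against the shares of all tested genes. Above both was the most frequent position among higher genes, and within the eosinophil range the most frequent among granule genes, 5 of 9.

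Among the largest differences from marrow eosinophils, genes higher in culture included Timp3, a metalloproteinase inhibitor gene, at 79.2 and 86.0 CPM against 0 to 0.238 CPM, Anpep, the aminopeptidase CD13 gene, at 61.9 and 63.0 against 0.0558 to 0.278 CPM, and Fscn1, the fascin gene of mature dendritic cells, at 139 and 145 against 0.223 to 0.516 CPM. Genes lower in culture included Fcna, a ficolin gene of macrophages, at 0 and 0.0526 CPM against 186 to 388 CPM, Cxcl12, the marrow stromal chemokine gene, with no count in the cultures against 25.8 to 39.7 CPM, and Col14a1, a collagen gene, with no count against 16.7 to 47.3 CPM. The part of other cells in these differences was not tested.

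**Figure D4:**
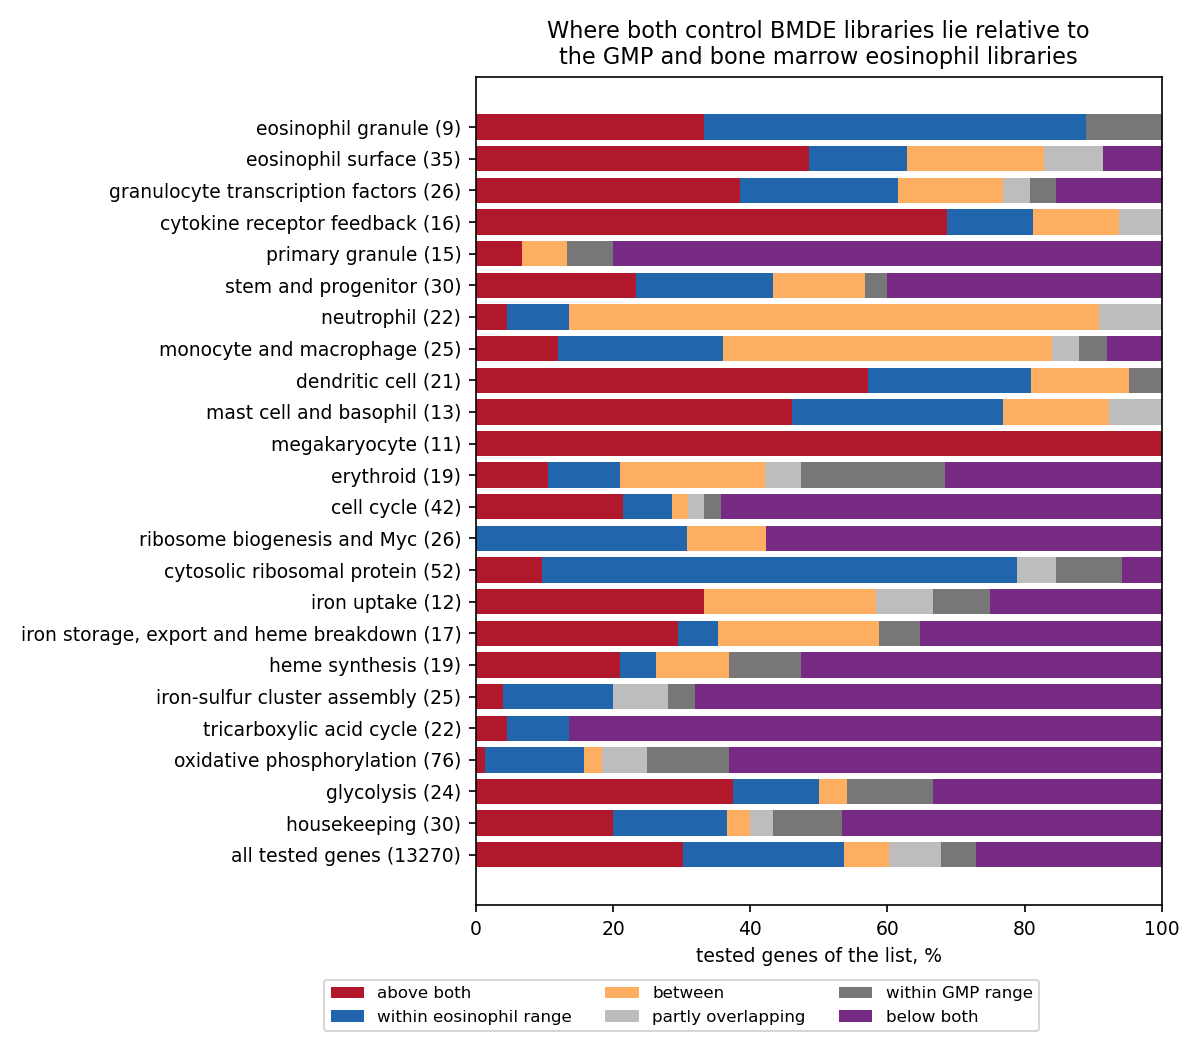
For each gene list, with the number of tested genes in brackets, the bars give the percentage of genes for which both control BMDE libraries lay above, within, between or below the GMP and marrow eosinophil libraries, or overlapped a group in part. All 11 megakaryocyte genes lay above both, most neutrophil genes lay between, and most primary granule and tricarboxylic acid cycle genes lay below both, against 30.2%, 6.56% and 27.1% of all tested genes.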

How the data were processed

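Per the labels' protocols, oligo(dT) selected the poly(A) RNA and a NEBNext Ultra kit was used. The strand setting is not given in the sources used here, so antisense overlaps are uncertain. The submitters' processing notes list RSEM, HISAT2, StringTie 1.3.1, Bowtie2 2.2.8 and fastp 0.18.0, and build mm10, without roles. The authors deposited expected counts (estimated reads, not normalised) and TPM per gene in the BMDE table and the GMP and marrow eosinophil table, and raw counts in the third table of resting eosinophils. TPM served only for comparing genes per length.

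Both tables were joined on Entrez identifiers, and expected counts were rounded. The control BMDEs (n = 2), GMPs (n = 3) and marrow eosinophils (n = 3) entered 1 edgeR 4.0.16 fit (limma 3.58.1, R 4.3.3; filterByExpr, TMM, two-sided quasi-likelihood F test, common biological coefficient of variation 0.426). Benjamini-Hochberg adjustment ran over 13270 genes; a call needs an adjusted p under 0.05 and a fold change of at least 8. Resting eosinophil levels are CPM over 14471 genes shared by symbol. Symbols came from RefSeq (15193 of 15235 genes matched). A floor of 3 counts over a group covers counting error only, since reads carry no molecular identifiers. Counts were also simulated for 15235 genes, with these library sizes and with means averaged over the BMDE, GMP and marrow eosinophil libraries. Of these, 100 of 100 genes changed 16-fold, 0 of 100 changed 4-fold and 0 of 12778 unchanged genes were called. The simulated spread was set below the fitted one, and changed genes were drawn from those with higher means. The simulation therefore checks the procedure and gives no error rate for these data.

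The 29 gene lists, the groups and the tests were chosen with earlier results of these data known. Named genes are a fixed panel, the 12 largest rises and falls against GMPs and the 8 largest differences each way from marrow eosinophils among called, non-overlapping genes with a mean of at least 20 CPM in the higher group, up to 4 called members per list with the largest changes, and members behind a count of 5 or fewer. Other members of a list that are named were chosen after their values were seen. Alternatives were DESeq2 1.42.0, other scalings, ranks, filters, fold limits, a replicate block, length and GC offsets (available for 96.9% of genes), other sets of libraries, and omission of X and Y, which was added after the Y-linked genes were seen. Deviations from the group mean correlated at -0.02 to 0.09 between samples sharing a replicate number and at -0.14 to 0.11 between others. With 2 or 3 libraries per group these deviations are tied to each other, so the check cannot tell whether samples are paired. The values of 1 named gene are not reported here.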

Additional observations from a re-analysis of the deposited data

Results flagged for a closer look

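Among the panel genes in the 4 FAC cultures, the only BMDE arm screened in this way, 2 values stood far from the rest of their group. Chance alone marks a share of about 0.05 of such groups, and the values touch no control library. Csf2rb was at 1046 CPM in FAC library 6 and at 1617, 1721 and 1698 CPM in the other FAC libraries. Cd34 was at 25.9 CPM in FAC library 7 and at 28.1, 28.4 and 28.1 CPM in the others, a gap that is wide only against the narrow spread of the group.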

How the results depend on the processing

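No call reversed under any alternative that was run. Genes called higher than in GMPs numbered 1016 at a 16-fold limit and 1140 to 1750 when a library was left out. Genes called lower than in GMPs numbered 535 on ranks alone, 559 at a 4-fold and 165 at a 16-fold limit, and 97 to 351 with a library left out. Against marrow eosinophils the higher genes numbered 1857 at 4-fold, 631 at 16-fold and 599 to 1212 with a library left out, and the lower genes 864, 258 and 177 to 457, with 262 when only the groups compared were fitted. With a replicate block, a fit whose pairing the numbers do not support, 1230 genes were higher and 192 lower than in GMPs, of which 1161 and 176 were among those reported, and 828 were higher and 263 lower than in marrow eosinophils. DESeq2 called 1664 and 274 genes against GMPs, and all 9 BMDE libraries together 1786 and 305; totals over the whole tables changed no count. The cause of these shifts was not tested. The median over all genes moved by over 0.1 on the log2 scale with DESeq2 (0.15 against GMPs and 0.14 against marrow eosinophils), on ranks alone (-0.31 and -0.11), against marrow eosinophils with library totals (0.38), and against GMPs without GMP library 2 (0.14) or 3 (0.10). Of 2255 pairs of a named gene and an alternative against GMPs, 2213 gave the outcome of the main fit, called or not called. The other 42, in 16 of 119 genes, lost a call. These pairs include genes such as Siglecf that were not called in the main fit and had no call to lose. Of 1079 pairs against marrow eosinophils, which cover called genes only, 50 lost the call, in 11 of 57 genes. Medians of 28 of the 29 lists kept their sign in every alternative, the erythroid list being the exception. There were only 2 control cultures and no group present in both tables. Whether depth or the number of libraries limits precision more was not tested.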
